A study of Mus musculus with 60 samples.

Results

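Zinc finger genes whose symbol is Zfp followed by a number were examined in spleen leukocytes of young NOD, NON and C57BL/6 (C57) mice. A gene was selected on 2 conditions. At least 1 probe set of the 430A or 430B array had to carry this symbol alone, and the mean MAS 5.0 signal of such a probe set over all 30 mice had to reach 100. This gave 224 expressed Zfp genes among 307 on the arrays, and among 18193 genes of any name. The mean over all mice therefore chose the genes, and a strain or age difference was not a condition. A gene near the limit can still pass it through the strains in which it is high, as Zfp775 and Zfp982 did. Both are counted among the strain-dependent genes below, and the shares were not corrected for this. The genes were also chosen with earlier results of these data known. The samples were uncultured, untreated and unfractionated spleen leukocytes of female mice, from 5 animals in each of 6 groups: NOD, NON and C57 mice of 2 weeks, and the same strains at 4 weeks. NOD mice spontaneously develop autoimmune diabetes. The related NON strain stays free of it, and C57 is a more distant diabetes-free strain. No mouse carried a transgene or received an agent. Each strain is inbred, so that a strain is represented here by animals of a single genetic background.

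A zinc finger is a short protein fold held together by a zinc ion. Most Zfp genes encode proteins with rows of C2H2 fingers that bind DNA. Many of these also carry a KRAB domain, which recruits the co-repressor Trim28 and the histone methyltransferase Setdb1 and is best known for the silencing of retroelements. KRAB zinc finger genes lie in clusters of neighbouring copies that arose by repeated duplication. The Zfp36 proteins are different, since their CCCH fingers bind AU-rich elements of mRNA and lead to its decay.

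The brightest probe set stood for each gene. Its mean signal, an array intensity on a linear scale, ranged from 101 to 3774 with a median of 302. It was under 200 in 70 genes. The 3 genes just inside the limit were Zfp141 (101), Zfp775 (102) and Zfp51 (102), and the 3 just outside were Zfp941 (99.5), Zfp219 (98.8) and Zfp708 (97.2). The brightest probe sets belonged to Zfp36l2 (3774), Zfp445 (3261), Zfp36 (2885), Zfp384 (2384), Zfp318 (2015), Zfp36l1 (1751), Zfp622 (1582) and Zfp592 (1556). Signals of different probe sets do not share a scale, so this order ranks probe sets and not amounts of mRNA. Zfp445 encodes a silencer of imprinted genes and Zfp384 a transcription factor, while Zfp622 takes part in ribosome assembly.

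Markers of B cells were bright in every mouse, with a summed signal of 14880 to 57727 over 7 genes. The summed signal of the pancreatic acinar markers lay between 414 and 1924. Replicate 3 of the 4 week NOD group had a median correlation with its group of 0.739, and the next lowest of any mouse was 0.825. The 3'/5' signal ratio of Gapdh on the 430A array, a sign of RNA quality, was 0.744 to 1.30 in NOD, 0.746 to 4.00 in NON and 0.804 to 2.40 in C57 mice. It was over 2 in 5 mice, of which 3 were NON and 2 were C57. With whole leukocytes, fewer cells of a type and less RNA per cell cannot be told apart.

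The strain comparison asked which expressed Zfp genes set one of the strains apart before disease. At 2 weeks, 10 of the 224 genes (4.46%) differed at an adjusted p under 0.05, against 2.18% of all 12190 genes with a signal of 100 or more. At 4 weeks, 7 (3.12%) differed, against 2.15%. Each call rests on limma's moderated F-test of the 3 strains, and p-values were adjusted by Benjamini-Hochberg across the 38293 kept probe sets. A strain is called odd where its mean was the highest or the lowest and was separated from the second mean by the wider of the 2 gaps. At 2 weeks NON was low for 7 genes (3.12%, background 0.525%), C57 was low for 2 (background 0.279%) and C57 was high for 1 (background 0.632%). At 4 weeks NON was low for 4 (background 0.345%), while C57 low, C57 high and NOD low each held 1 gene, with backgrounds of 0.427%, 0.574% and 0.558%. Between them the ages gave 12 genes, 5 of which were called at both ages, each with the same odd strain. These 5 made up 50% of the genes called at 2 weeks and 71.4% of those called at 4 weeks.

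The other 212 genes passed at neither age. The median ratio of the highest to the lowest strain mean was 1.29 at 2 weeks and 1.36 at 4 weeks, beside 1.32 at both ages over the 12190 genes. At an unadjusted p under 0.05, 17.4% of the Zfp genes differed at 2 weeks and 18.3% at 4 weeks, close to the 17% and 16.2% of all genes. The median coefficient of variation within a group was 25% for the Zfp genes and 24% for all genes.

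**Figure D1:**
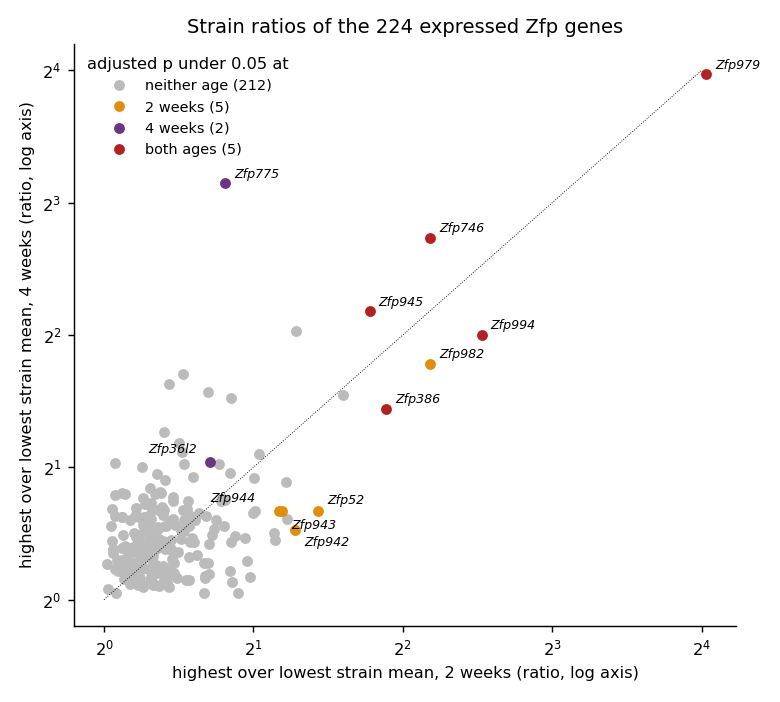
Each point is 1 of the 224 expressed Zfp genes, with the ratio of its highest to its lowest strain mean signal at 2 weeks (x axis) and 4 weeks (y axis), both on log axes. Zfp979 lies far from the rest at 16.3 and 15.7, and the 212 grey genes passed the test at neither age.

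Promoter windows are shown for 6 genes that differed between strains, because they lie in 2 chromosome stretches and several resemble each other. Each runs from 250 bases before to 50 bases after a RefSeq start site on GRCm38.p6, 5' to 3' on the gene's strand. Capitals mark TGGGCGGG, letters chosen after the windows had been seen. Zfp982 had 3 windows, and the 1 that holds these letters was picked. The other genes shown had 1 window each.
Zfp942, chr17:21962415-21962714, minus strand: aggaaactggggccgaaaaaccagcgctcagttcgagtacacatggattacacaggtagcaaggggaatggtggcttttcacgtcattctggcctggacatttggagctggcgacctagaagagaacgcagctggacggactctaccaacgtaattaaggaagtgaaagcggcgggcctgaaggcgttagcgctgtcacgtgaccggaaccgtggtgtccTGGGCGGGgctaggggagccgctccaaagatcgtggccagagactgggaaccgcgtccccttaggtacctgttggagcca
Zfp944, chr17:22361351-22361650, minus strand: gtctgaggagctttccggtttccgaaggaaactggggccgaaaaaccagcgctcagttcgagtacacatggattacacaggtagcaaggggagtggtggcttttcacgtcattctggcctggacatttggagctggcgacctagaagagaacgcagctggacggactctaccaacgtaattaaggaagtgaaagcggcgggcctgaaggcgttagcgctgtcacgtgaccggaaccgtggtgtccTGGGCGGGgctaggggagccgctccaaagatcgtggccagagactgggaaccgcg
Zfp994, chr17:22225565-22225864, minus strand: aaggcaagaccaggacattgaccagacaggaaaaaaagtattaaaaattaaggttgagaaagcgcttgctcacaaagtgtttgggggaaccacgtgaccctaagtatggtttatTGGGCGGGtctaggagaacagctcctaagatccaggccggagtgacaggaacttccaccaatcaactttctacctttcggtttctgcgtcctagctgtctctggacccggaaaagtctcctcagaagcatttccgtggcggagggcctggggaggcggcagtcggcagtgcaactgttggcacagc
Zfp945, chr17:22867085-22867384, minus strand: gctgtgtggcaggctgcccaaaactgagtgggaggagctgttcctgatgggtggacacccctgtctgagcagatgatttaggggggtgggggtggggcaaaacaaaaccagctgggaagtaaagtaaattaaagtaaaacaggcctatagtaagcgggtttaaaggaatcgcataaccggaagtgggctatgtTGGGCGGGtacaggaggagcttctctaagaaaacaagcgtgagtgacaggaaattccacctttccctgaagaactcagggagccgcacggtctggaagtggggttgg
Zfp979, chr4:147642459-147642758, minus strand: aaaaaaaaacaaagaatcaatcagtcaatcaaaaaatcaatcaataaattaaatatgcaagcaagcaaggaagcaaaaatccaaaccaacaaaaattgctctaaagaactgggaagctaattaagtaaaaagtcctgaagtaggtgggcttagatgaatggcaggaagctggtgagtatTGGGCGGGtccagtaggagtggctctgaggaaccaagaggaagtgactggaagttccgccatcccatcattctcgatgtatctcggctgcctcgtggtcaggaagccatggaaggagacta
Zfp982, chr4:147492167-147492466, plus strand: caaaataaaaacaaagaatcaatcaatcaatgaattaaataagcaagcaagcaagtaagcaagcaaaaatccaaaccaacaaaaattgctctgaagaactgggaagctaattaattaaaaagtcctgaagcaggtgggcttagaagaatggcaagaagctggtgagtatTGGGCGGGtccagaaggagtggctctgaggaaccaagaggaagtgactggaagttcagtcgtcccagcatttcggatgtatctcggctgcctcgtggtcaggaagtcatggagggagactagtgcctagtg
The windows of Zfp942 and Zfp944 were identical at 274 of 275 aligned bases, with 1 stretch of 207 bases without a difference. The window of Zfp979 and the Zfp982 window picked for these letters were identical at 269 of 301 aligned positions (89.4%). Zfp942 and Zfp994 shared 62% and Zfp994 and Zfp945 61.6% of aligned positions, with longest identical stretches of only 9 and 12 bases. Zfp942 and Zfp945 shared 57.9%, with a longest stretch of 9. Unrelated windows were not aligned, so these lower shares are not shown to be a likeness. Zfp943 starts head to head with Zfp942, and 194 of the 300 bases of its window are the same stretch read on the other strand. On either strand, TGGGCGGG (or CCCGCCCA) was found for 8 of the 11 strain-dependent genes with a window, for 22 of the 183 expressed Zfp genes with one (12%) and for 1804 of 27025 genes of any name (6.68%). In the chromosome 17 stretch described below it was found for 8 of 18 expressed Zfp genes with a window (44.4%). Outside this stretch it was found for 14 of 165 (8.48%). The called genes Zfp386, Zfp746 and Zfp775, which lie on other chromosomes than 4 and 17, lacked it. Zfp758 and Zfp946 of the stretch had it without a strain call. The 8 strain-dependent genes include the 6 shown. TGGGCGGG is a string of letters picked from these sequences, and the shares describe them only.

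Zfp979 and Zfp982, which lie in 1 stretch of chromosome 4 with Zfp991, were low in C57 mice. The Zfp979 signals at 2 weeks were 1317, 1183.4, 864.7, 694 and 1087 in NOD, 402.4, 523.1, 625.4, 302.7 and 325.4 in NON, and 28.8, 139.8, 8.5, 79.4 and 58.6 in C57. At 4 weeks they were 689.6, 655.1, 496.7, 530.6 and 616.3 in NOD, 421.2, 864.7, 731.3, 550 and 390.5 in NON, and 49.3, 11.5, 87.7, 28.7 and 13.2 in C57. Every C57 mouse lay below every other mouse at both ages, and at 2 weeks NOD and NON did not overlap either. The mean of the other strains was 11.6-fold that of C57 at 2 weeks (adjusted p = 0.000191), and the ratio was 15.6 at 4 weeks (adjusted p = 2e-05). C57 means of 63 and 38.1 are near background, so these ratios depend on a few units of signal.

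Zfp982 had 2 week signals of 158.1, 280.7, 299, 296.1 and 160.8 in NOD, 190.5, 186.3, 83, 114.2 and 71.6 in NON, and 61.9, 68.3, 31.1, 36.2 and 65.5 in C57. The C57 mice were all below the others, and the mean of the others was 3.5-fold theirs (adjusted p = 0.00783). At 4 weeks NOD signals fell between 26.2 and 195, NON between 39.4 and 263 and C57 between 22 and 67.3. The groups overlapped then, and the test did not pass (adjusted p = 0.36). A dim second Zfp982 probe set was also called at 2 weeks (adjusted p = 0.0465), where NOD averaged 140 ± 19.0, NON 62.8 ± 17.7 and C57 67.5 ± 24.7 (SD, n = 5), so that there NOD rather than C57 was the odd strain. The brightest Zfp991 probe set did not pass at either age (adjusted p = 0.764 and 0.796).

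Zfp746 was high in C57. It encodes PARIS, a repressor of the metabolic regulator Ppargc1a. Its signals at 2 weeks were 271.5, 331.3, 351.7, 419.9 and 449.8 in C57, against 33.5 to 178 in NOD and 34 to 170.6 in NON. At 4 weeks they were 256.3, 431.8, 446.5, 379.9 and 368.5 in C57, 40.8 to 78.2 in NOD and 320.4, 267.2, 104, 45.1 and 153.7 in NON. C57 mice stood above all others at 2 weeks, while 2 NON mice of 4 weeks reached the lowest C57 mouse. C57 was 4.38-fold the mean of the other strains at 2 weeks (adjusted p = 0.0141), a ratio that was 3.21 at 4 weeks (adjusted p = 0.00854). At 4 weeks the NON mean lay midway, with log2 means of 6.02 for NOD, 7.29 for NON and 8.57 for C57, and the C57 high label at that age rests on a difference between these gaps of under 0.01.

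Zfp775 lies near Zfp746 in a stretch of 7 Zfp genes on chromosome 6 and was called at 4 weeks only. Its NON signals then were 23.3, 18.6, 15.2, 16.5 and 22.4, against 14.4, 103.8, 196.2, 135.8 and 49.6 in NOD and 169.4, 114.8, 139.1, 165.7 and 261.6 in C57. Signals were below 50 in all 5 NON and in 2 NOD mice (adjusted p = 0.0169). At 2 weeks the groups overlapped widely, where NOD averaged 131.7 ± 75.8, NON 75.2 ± 66.8 and C57 113 ± 88 (SD, n = 5; adjusted p = 0.765). The other 5 genes of this stretch passed at neither age.

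Zfp386, on chromosome 12, was low in NON at both ages. The NON signals were 138.4, 134.9, 103.3, 72.6 and 79.1 at 2 weeks and 152.2, 157.1, 162.3, 100 and 136.2 at 4 weeks. NOD signals were 240.8 to 674.7 and 295.6 to 439.7 at these ages, and C57 signals 299.5 to 460.6 and 266.3 to 487.9. No NON mouse reached the lowest mouse of another strain. The other strains averaged 3.68-fold the NON mean at 2 weeks (adjusted p = 0.00131). The ratio was 2.62 at 4 weeks (adjusted p = 0.00195). A second Zfp386 probe set was low in NON as well, at 53.8 against 128 and 118 at 2 weeks (adjusted p = 0.0181), and did not pass at 4 weeks (adjusted p = 0.27).

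**Figure D2:**
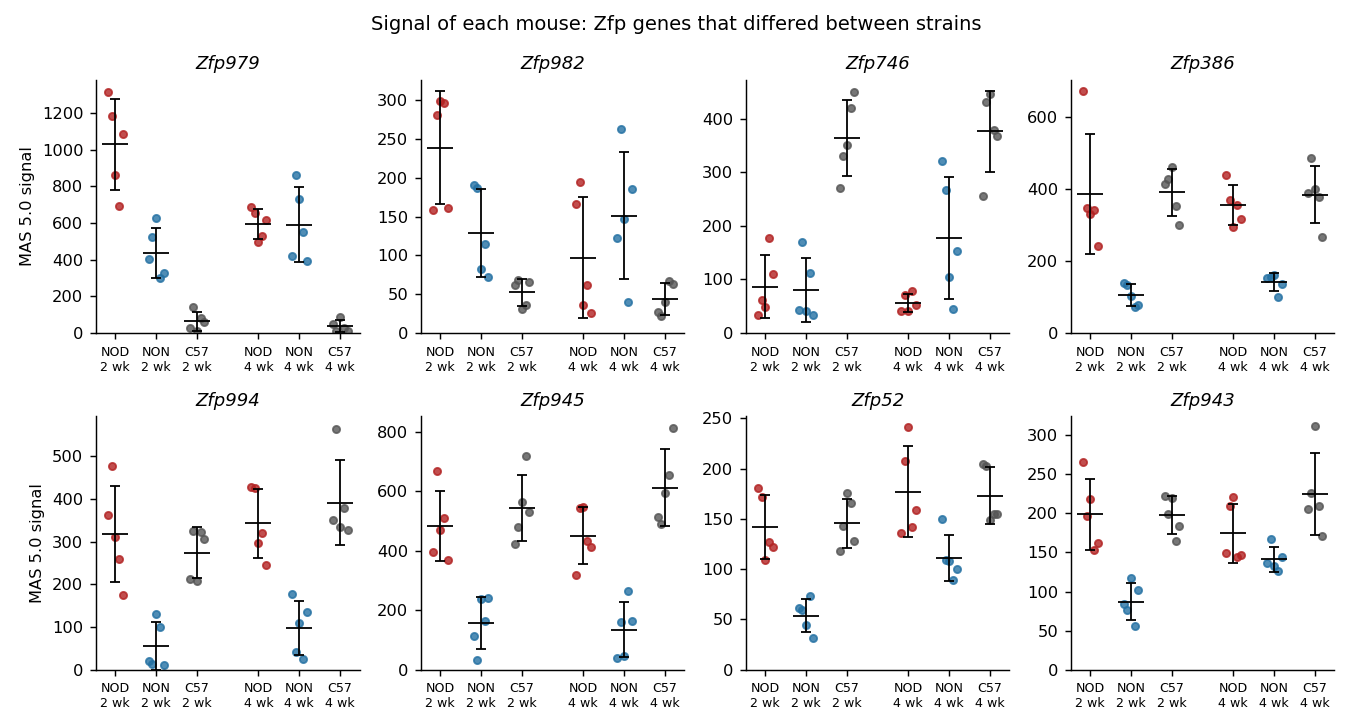
Points are the MAS 5.0 signals (y axis, linear) of single mice for 8 strain-dependent Zfp genes, by strain and age in weeks (x axis), with the mean and SD of 5 mice in black. C57 mice lie lowest for Zfp979, the C57 mean is the highest for Zfp746, with 2 NON mice of 4 weeks above the lowest C57 mouse, and NON mice lie below all others for Zfp386, Zfp994 and Zfp945.

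The remaining genes low in NON were all neighbours on chromosome 17. Low here means a low signal on the brightest probe set. Whether sequence differences between strains under the probes, or binding to similar neighbouring copies, shape any strain call was not tested. Zfp genes were joined into a stretch where at most 10 other protein-coding genes of the RefSeq order lay between them, which placed 137 of 223 genes in 33 stretches. The longest, with 20 genes from Zfp160 to Zfp13, held 6 of the 10 genes called at 2 weeks and 2 of the 7 called at 4 weeks. It held 8.93% of the expressed Zfp genes and 50% of those called at either age. NON was below the mean of the other strains for 15 of the 20 genes at 2 weeks and for 13 at 4 weeks, with medians of -0.60 and -0.24 (log2 of signal + 10). Outside this stretch NON was lower for 126 and 116 of 204 genes, with medians of -0.06 and -0.05. On chromosome 7, which holds 57 expressed Zfp genes, the most of any chromosome, none passed at either age. The backgrounds of 2.18% and 2.15% would give few calls among 57 genes.

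Zfp994 signals at 2 weeks were 19.5, 13.6, 130.8, 98.9 and 12 in NON, 361.6, 476.2, 311.6, 260.2 and 176 in NOD and 211.4, 323.8, 208.1, 321.9 and 305.9 in C57. At 4 weeks they were 176.5, 40.6, 110.1, 24.5 and 136.2 in NON, 245.6 to 427.2 in NOD and 327 to 564.7 in C57. NON did not overlap the others at either age. The other strains averaged 5.38-fold the NON mean at 2 weeks (adjusted p = 0.00794), and the ratio was 3.76 at 4 weeks (adjusted p = 0.0149).

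Zfp945 signals at 2 weeks were 114.9, 34.2, 238.2, 165.1 and 240.3 in NON, against 369.8 to 667.8 in NOD and 424.6 to 719.8 in C57. At 4 weeks they were 40, 161.5, 45.3, 263.5 and 165.2 in NON, against 318.8 to 547.3 and 490.2 to 813.3. The groups were again separate, with ratios of 3.24 (adjusted p = 0.0224) and 3.94 (adjusted p = 0.0112). Without replicate 1 of the NON mice the 2 week call was lost (adjusted p = 0.0623). The next brightest Zfp945 probe set, which is 1 of 2 others, ran the other way. At 4 weeks its signals were 391.4, 530.6, 377.2, 226.7 and 630.8 in NON, against 108.8 to 187.4 in NOD and 83.2 to 269.1 in C57 (adjusted p = 0.0441). The C57 mice at 236.1 and 269.1 lay above the lowest NON mouse, and the 2 probe sets of this gene gave opposite directions. Which of these probe sets follows the mRNA was not tested.

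**Figure D3:**
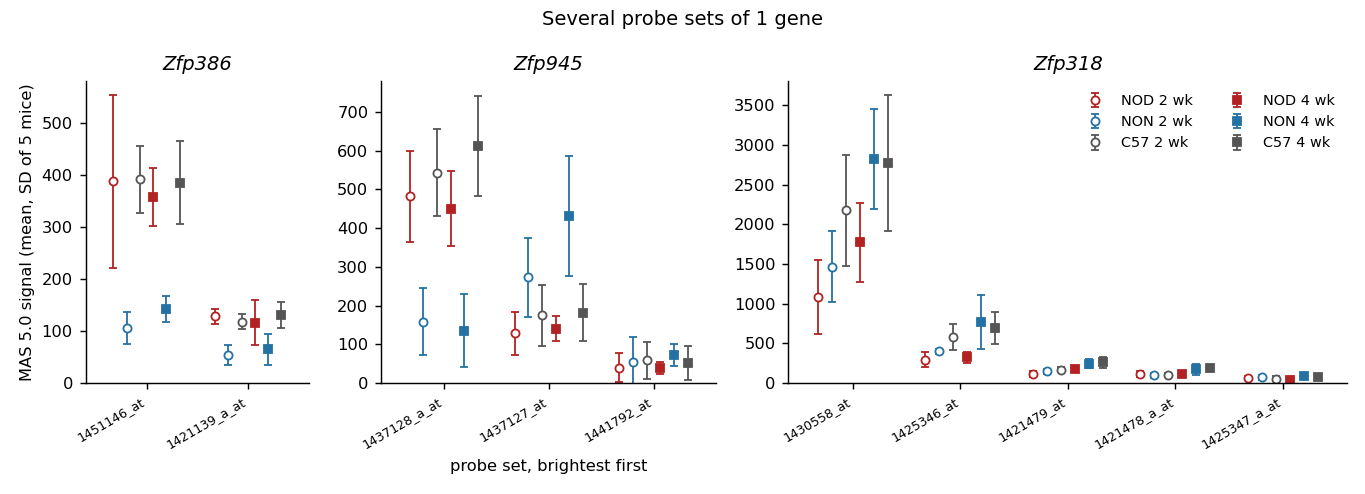
Mean signal and SD of 5 mice (y axis, linear) for each kept probe set (x axis) of Zfp386, Zfp945 and Zfp318, with strains in colour, 2 weeks as open circles and 4 weeks as filled squares. NON is lowest on both Zfp386 probe sets, lowest on the first Zfp945 probe set and highest on its second.

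Zfp52, Zfp942, Zfp943 and Zfp944 were low in NON at 2 weeks only. Zfp52 signals were 61.1, 59.1, 44.4, 73.6 and 31.2 in NON, 108.7 to 180.2 in NOD and 117.9 to 175.2 in C57, a ratio of 2.67 (adjusted p = 0.00494). Zfp943 signals were 83.8, 76.9, 117, 55.3 and 102.5 in NON, 153 to 265.3 in NOD and 164.2 to 222.1 in C57, a ratio of 2.28 (adjusted p = 0.0104). Neither gene had a NON mouse within the range of the other strains. Zfp942, which shares its start region with Zfp943, was at 80.9, 86.5, 106.3, 137.4 and 41.9 in NON, 192.3 to 282.3 in NOD and 119.9 to 266 in C57 (ratio 2.23, adjusted p = 0.0432). Zfp944 was at 234.8, 187.8, 166.9, 206.4 and 116.3 in NON, 240.3 to 440.1 in NOD and 344.8 to 504.6 in C57 (ratio 2, adjusted p = 0.03). A single NON mouse overlapped C57 for Zfp942, and none overlapped for Zfp944. Leaving out 1 mouse ended the call of Zfp942 for 13 of the 15 mice and that of Zfp944 for 7 of the 15.

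At 4 weeks the ratios of these 4 genes were 1.57, 1.19, 1.41 and 1.1, with adjusted p of 0.222 to 0.662. The difference between the ages in the strain effect was tested as an interaction of strain and age, and no Zfp gene passed (0 of 224, background 0.0%, 17 at an unadjusted p under 0.05, lowest adjusted p = 0.583). The calls at 2 weeks alone are therefore not shown to differ from 4 weeks.

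**Figure D4:**
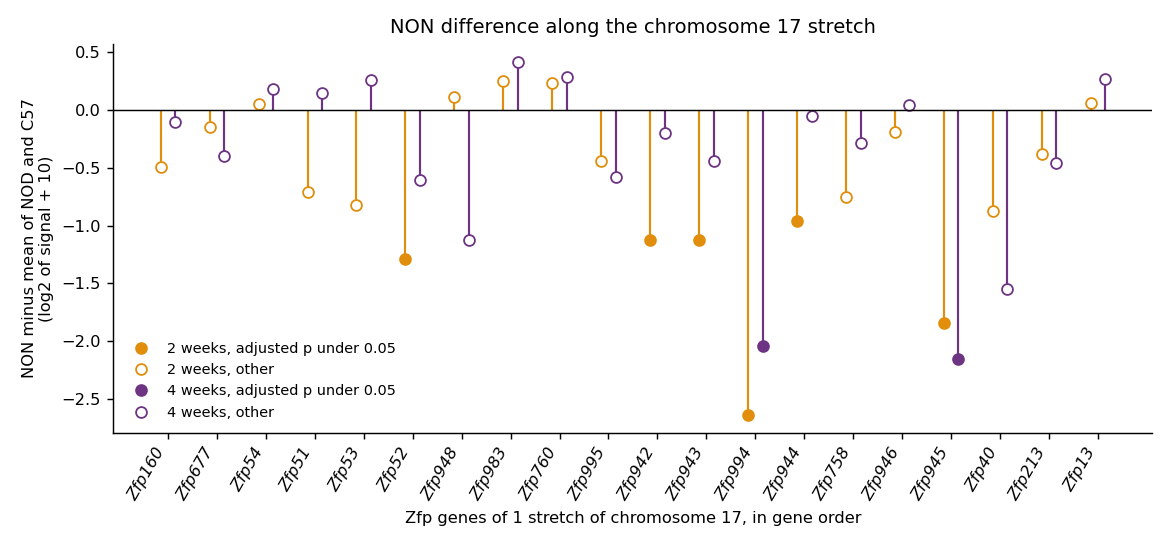
For the 20 Zfp genes of the chromosome 17 stretch in gene order (x axis), the difference of NON from the mean of NOD and C57 in log2 of signal + 10 (y axis) at 2 and 4 weeks, with filled points where the 3 strains differed at an adjusted p under 0.05. The lowest points are Zfp994 and Zfp945 at both ages, and the 6 filled points at 2 weeks lie below 0.

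Markers of T cells were low in NON as well. Of 10 markers, 4 differed between strains at 2 weeks and 5 at 4 weeks. The NON mean was the lowest in each, but not every call sets NON apart. For Cd8b1, called at both ages, C57 was high. Its means were 167 in NOD, 116 in NON and 612 in C57 at 2 weeks, and 313, 279 and 1029 at 4 weeks. For Cd8a at 2 weeks NOD lay between, at 758 against 437 in NON and 1361 in C57. The summed signal of the 10 markers at 2 weeks was 1551 to 3212 in NON, 4027 to 7414 in NOD and 5306 to 10142 in C57. At 4 weeks it was 4986 to 6073, 7517 to 9359 and 8910 to 12150. At 4 weeks 3 markers of other cells were called with NON highest and C57 lowest. Means were 2070 in NON, 1265 in NOD and 473 in C57 for Mpo and 470 in NON, 313 in NOD and 146 in C57 for Ctsg, both of myeloid precursors. For Mki67, of dividing cells, they were 2088, 1239 and 650. In ratio of these means C57 lay farther below NOD than NON lay above it for all 3 markers, so NON was not the strain set apart. The part of cell content in the genes low in NON was not tested. The Gapdh ratio also reached its highest values in NON. Without the 5 mice with a ratio over 2, Zfp386, Zfp994 and Zfp979 were called at both ages, while Zfp942 and Zfp944 lost their call at 2 weeks (adjusted p = 0.0808 for both). At 4 weeks the calls of Zfp945 (adjusted p = 0.105) and Zfp775 (adjusted p = 0.142) were lost.

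Other probe sets of the called genes did not always follow the brightest one. At 2 weeks, 9 other kept probe sets covered 6 of the 10 genes, and 5 of them had the sign of the brightest probe set, 2 with a call. At 4 weeks 1 of 5 had that sign. These other probe sets were mostly dim, with means of 26.7 to 221. At each age 3 genes were called on another probe set alone. Zfp991 was high in C57 on its dimmest probe set at both ages. At 2 weeks the C57 mean was 107 ± 26.6, the NOD mean 47.8 ± 7.20 and the NON mean 18.5 ± 7.70 (SD, n = 5; adjusted p = 0.000447), opposite in direction to its neighbours Zfp979 and Zfp982.

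Zfp36l2 was the only Zfp gene called on its brightest probe set with NOD as the odd strain. It encodes a CCCH protein that promotes decay of AU-rich mRNAs and is needed in developing lymphocytes together with Zfp36l1. Its signals at 4 weeks were 2639.8, 3027.2, 2665.3, 2751.5 and 3010.9 in NOD, 5798.6, 6979.4, 5946.5, 3756.7 and 6440.2 in NON and 5202.2, 4262.8, 3644, 3894.3 and 3316.9 in C57. The NOD mice were tightly grouped and all below the other 10. On the log2 scale, however, C57 lay nearly midway. Against the mean of the other strains NOD differed by -0.76, NON by 0.75 and C57 by 0.008. NON was thus almost as far out on the high side, and the NOD low label rests on a small difference between the gaps. The mean of the controls was 1.75-fold the NOD mean (adjusted p = 0.0368). This call was lost when any 1 of 13 of the 15 mice of that age was left out, with an adjusted p of up to 0.0912, and without the 5 mice of high Gapdh ratio (adjusted p = 0.22). At 2 weeks the NOD signals were 1625.2 to 3600.4 and overlapped both controls (adjusted p = 0.494). The 2 dimmer Zfp36l2 probe sets were not called (adjusted p = 0.342 and 0.828).

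The age comparison asked which genes changed between 2 and 4 weeks. Over the 3 strains, 3 Zfp genes rose (1.34%, background 2.35%) and 1 fell (0.446%, background 3.26%). Their median change was 0.01 (log2), equal to that of all genes, and in 214 of the 224 it was under 0.5 in size. No test of the Zfp genes against all genes was made. At an unadjusted p under 0.05, 10.7% of the Zfp genes passed, beside 18.9% of all genes.

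Zfp318, a nuclear protein required for IgD expression in mature B cells, rose by 0.70 (log2 of signal + 10, SE 0.17, adjusted p = 0.0213). Its signals were 558, 1216.6, 788.9, 1779.3 and 1061.6 in NOD, 1364.9, 1469, 2089.8, 1573.3 and 830.2 in NON and 1574.1, 1411.9, 2881.7, 2880.6 and 2137.5 in C57 at 2 weeks. At 4 weeks they were 1656.3, 2395.6, 1033.2, 1817.4 and 1972.1 in NOD, 3187.3, 3709.6, 2091, 2591 and 2531.7 in NON and 1604.2, 2677.3, 2943.7, 2611.4 and 4005.1 in C57. NON mice of the 2 ages were separate, whereas NOD and C57 ages overlapped. The means of 4 over 2 weeks were 1.64, 1.93 and 1.27 in NOD, NON and C57. Of the other 4 Zfp318 probe sets, 1 also rose, by 0.63 (adjusted p = 0.00347).

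Zfp36l1 rose by 0.50 (SE 0.14, adjusted p = 0.0423). Its signals in NON were 929, 1459.3, 1256.5, 1070.6 and 445.2 at 2 weeks and 2139.2, 2096.6, 1704.5, 1691.4 and 2808.6 at 4 weeks, with no overlap. In NOD they were 1252.4 to 2098.6 and then 1483.8 to 2282.9, and in C57 1558.6 to 2282.2 and then 1791 to 2378.1, which overlapped. Tested within each strain, the rise passed in NON (1.09, SE 0.24, adjusted p = 0.0176), and the differences were 0.28 in NOD (adjusted p = 0.792) and 0.13 in C57 (adjusted p = 0.991). A difference of the age change between strains was not shown for this gene (adjusted p = 0.666). On the dimmer Zfp36l1 probe set the C57 ages were separate, at 394.7 to 783.6 and then 829.1 to 1071.5. There the NON signals overlapped, at 198.8 to 413.2 and then 243.6 to 716.3. The NOD signals did so too, at 279.4 to 1284.2 and then 417.9 to 911.

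Zfp36, or tristetraprolin, the founding mRNA decay factor of the family, was not called. Its change was 0.54 (SE 0.18, adjusted p = 0.115), with mean ratios of 4 over 2 weeks of 1.35 in NOD, 1.8 in NON and 1.12 in C57. The value for Zfp36l2 was 0.38 (SE 0.16, adjusted p = 0.263), with 1.1, 1.78 and 0.973. For each of the 3 family members the largest ratio was that of NON, a difference between strains that did not pass for any of them (adjusted p = 0.666 to 0.804).

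Zfp52 rose by 0.49 (SE 0.12, adjusted p = 0.0142), and in NON by 0.95 (SE 0.20, adjusted p = 0.0151), from the low 2 week signals given above to 150.1, 108.7, 107.7, 89.6 and 100.3. The NON ages were separate. The differences in NOD and C57 were 0.29 and 0.23 (adjusted p = 0.726 and 0.953). Zfp367 fell by 0.62 on the log2 scale (SE 0.17, adjusted p = 0.044). Its NOD signals were 928.3, 622, 1227.9, 505 and 409 at 2 weeks and 494.2, 573.6, 492.1, 195.3 and 319.6 at 4 weeks. In NON they were 625.9, 662.9, 1065.1, 621.5 and 1091.8 and then 557.5, 392, 492, 578.1 and 516, and in C57 659.2, 581.5, 476.9, 361.8 and 556.9 and then 378.1, 424.7, 280.4, 652.1 and 271.7. Only the NON ages were separate. On the dimmer Zfp367 probe set the ages overlapped in every strain. Signals there were 87.3 to 241.6 and then 48.8 to 215.2 in NOD. They were 86.4 to 296.2 and then 52.8 to 407.9 in NON, and 120.7 to 169.6 and then 82.2 to 261.2 in C57.

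The age calls were sensitive to single mice and to RNA quality. Leaving out any 1 of 16 of the 30 mice ended the call of Zfp36l1 over the 3 strains, and any 1 of 19 that of Zfp367. Without the 5 mice with a Gapdh ratio over 2, no Zfp gene was called for age over the 3 strains, with adjusted p of 0.0638 for Zfp367, 0.0799 for Zfp52, 0.0979 for Zfp36l1 and 0.107 for Zfp318, and the changes of these genes kept their signs. In that setting the rises of Zfp36l1 and Zfp52 in NON were not called either (adjusted p = 0.123 and 0.158). Leaving out replicate 5 of the NON mice of 2 weeks alone also ended both (adjusted p = 0.0681 and 0.0722). The part of RNA quality in these changes was not tested further.

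**Figure D5:**
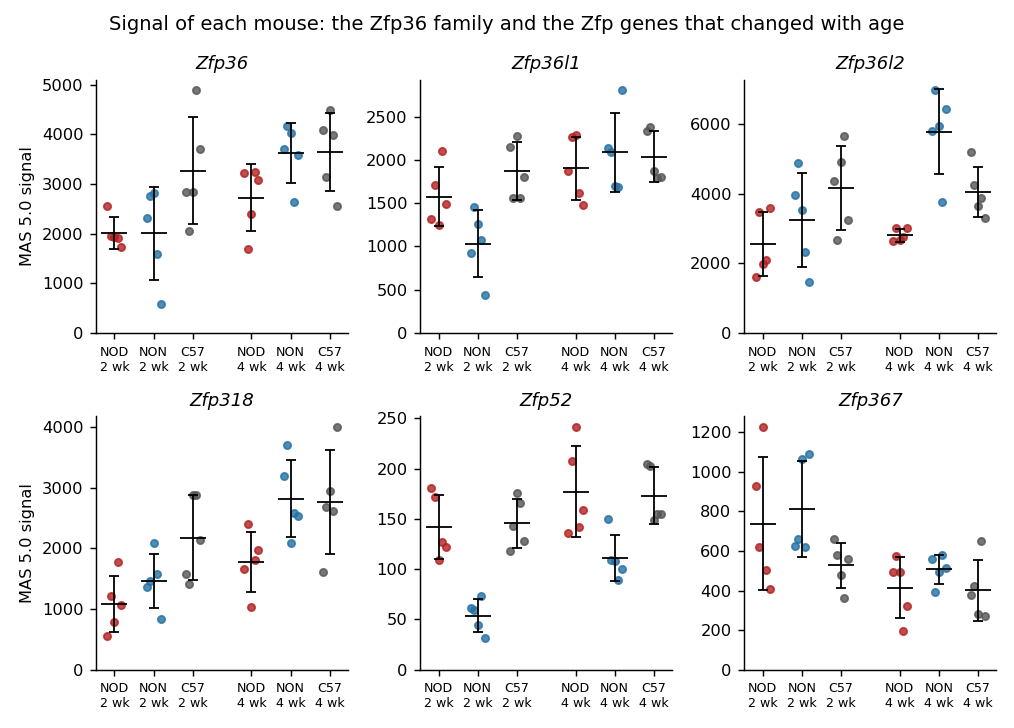
Points are the MAS 5.0 signals (y axis, linear) of single mice for the 3 Zfp36 family members and for Zfp318, Zfp52 and Zfp367, by strain and age in weeks (x axis), with the mean and SD of 5 mice in black. NON signals of Zfp36l1, Zfp318 and Zfp52 are separate between the ages, and Zfp36l2 at 4 weeks is lowest in NOD.

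Within single strains few genes passed. In NOD, Zfp101 fell (1 of 224, 0.446%, background 0.205%) and none rose (background 0.0656%). Its NOD signals were 178.6, 174.5, 151.3, 120.3 and 128.9 at 2 weeks and 19.5, 116.8, 20.9, 52.5 and 71.4 at 4 weeks. The ages did not overlap, and the mean at 2 weeks was 2.68-fold that at 4 weeks (adjusted p = 0.0393). The call was lost when any 1 of 7 of the 10 NOD mice was left out, with an adjusted p of up to 0.122, among them the 4 week replicate 3 that stood apart (adjusted p = 0.105). In NON, Zfp52 and Zfp36l1 rose (0.893%, background 1.45%) and Zfp668 fell (background 1.16%), from 374.1, 378.5, 227.4, 452.8 and 471.7 to 244.3, 147.6, 256.2, 55.5 and 142.3. These overlapped in 1 mouse of 2 weeks (adjusted p = 0.0495), and the call was lost on leaving out any 1 of 24 of the 30 mice. On the other Zfp668 probe set the NON ages overlapped widely, at 145.3 to 310.2 and then 74.5 to 337.4. In C57 no Zfp gene passed, with 3 at an unadjusted p under 0.05, against backgrounds of 0.0738% higher and 0.853% lower.

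Cell type markers moved with age over the 3 strains. All 11 markers of dividing cells fell, with a median of -0.97 (log2), and 10 of 10 T cell and 3 of 6 mature B cell markers rose, with medians of 0.86 and 0.60. The summed signal of the mature B cell markers was 3021 to 8313 at 2 weeks and 5725 to 11142 at 4 weeks, and that of dividing cells 5906 to 18892 and 2655 to 9990. Lower were also 6 of 7 B cell precursor markers, 8 of 11 of myeloid precursors and neutrophils and 3 of 7 of platelets. Higher were 5 of 7 NK cell, 2 of 8 macrophage and 1 of 7 B cell markers, and none of 8 erythroid or 6 kept acinar markers passed. Their part in the changes of Zfp318, Zfp36l1, Zfp52 and Zfp367 was not tested.

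Of 39 Zfp genes listed by known role, 30 were expressed. Backgrounds were 2.18% and 2.15% for strain at 2 and 4 weeks, and 2.35% higher and 3.26% lower with age. Lists this short would hold few calls or none at such shares. Among the 10 that encode ubiquitin or SUMO ligases, ribosome or RNA factors none passed for strain or age, with strain ratios of 1.02 to 2.14. They include Zfp598, a ubiquitin ligase of collided ribosomes (signal 366), Zfp451, a SUMO ligase (497), and Zfp207, a spindle protein (1044). None passed among 10 genes listed as transcription factors, such as Zfp148, Zfp281 and Zfp263, with age changes between -0.37 and 0.22. The 3 silencers were not called either. Zfp809, which silences retroviruses, had 4 week means of 507.6 ± 302.5 for NOD, 820 ± 131 for NON and 891 ± 94.5 for C57 (SD, n = 5; adjusted p = 0.347). A NOD mouse, the replicate 3 that stood apart, was at 94.1 and the other 4 were at 372.4 to 912. Of the lymphocyte genes besides Zfp318, Zfp335, Zfp91 and Zfp521 did not pass. Zfp521, an antagonist of the B cell factor Ebf1, had 4 week means of 305 ± 170 for NOD, 74.7 ± 33.9 for NON and 163 ± 91.4 for C57 (adjusted p = 0.183).

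Genes that work with the Zfp proteins were read against the same backgrounds, 2.35% higher and 3.26% lower with age and 2.18% and 2.15% different between strains at 2 and 4 weeks. Of 18 measured genes of the KRAB co-repressor machinery, 3 fell with age and none rose: Uhrf1 by 1.33, Dnmt1 by 1.08 and Cbx5 by 0.62 on the log2 scale. Uhrf1 and Dnmt1 copy DNA methylation at replication, and Cbx5 is a heterochromatin protein. Markers of dividing cells fell with age as well, and their part in these 3 falls was not tested. Dnmt3b, a DNA methyltransferase, differed between strains at both ages, with 2 week means of 63.2 ± 35.6 for NOD, 267 ± 127 for NON and 256 ± 81.7 for C57 (SD, n = 5; adjusted p = 0.00899). Among 25 mRNA decay partners and kinases of the Zfp36 proteins 1 passed, the decapping enzyme gene Dcp2. Its 2 week means were 1335 ± 379 for NOD, 2301 ± 497 for NON and 2833 ± 277 for C57 (SD, n = 5; adjusted p = 0.0227), and it fell with age by 0.47.

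Of 18 kept mRNAs known as targets of Zfp36 proteins, Ccnd3 and Cdk6, which drive the cell cycle, fell with age by 0.49 and 0.70. The part of dividing cells in these falls was not tested. On their brightest probe sets, none of the 18 differed between strains. The paper lists another Cdk6 probe set as lower in NOD at 4 weeks. Among 40 other C2H2 regulators of blood cells, Bcl11b, Egr1 and Egr2 rose with age by 0.76, 0.98 and 0.64. Egr3 differed between strains at 4 weeks, where C57 averaged 1849 ± 362, NOD 628 ± 164 and NON 652 ± 194 (SD, n = 5; adjusted p = 0.00453).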

How the data were processed

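RNA of spleen leukocytes from 30 female mice was hybridised to 1 430A and 1 430B array each, 60 arrays in all. The deposited values are MAS 5.0 signals, an array intensity on a linear scale that the authors scaled globally per array. The 2% trimmed mean of the deposited columns is near 250, whereas the methods name another target, so absolute levels depend on an unsettled scaling constant. Arrays carry no read depth, and their number limits the precision. Each value is 1 mouse on 1 array. The labels give a replicate number only, and the paper gives 5 samples for each strain and age. The samples of a group were read as separate animals, and the replicate numbers did not pair them.

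Groups came from the sample labels. Probe sets with a signal of 50 or more in at least 5 of the 30 mice were kept (38293 of 45037) and tested as log2(signal + 10) with limma 3.58.1 in R 4.3.3, and adjusted by Benjamini-Hochberg across these probe sets, at a threshold of 0.05. Strains were compared within each age by the moderated F-test. Age changes and the interaction came from a fit of all 6 groups. A fold understates the change of a dim gene on the log2(signal + 10) scale, while ratios in the text are of mean signals. Present and marginal flags, which the methods used as a filter, were not used here. The F-test was tested on simulated data.

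Each gene was read on its brightest probe set, named through the array annotation. The percentages given as background refer to the 12190 genes whose brightest probe set averaged 100 or more. Gene order, promoter windows and chromosomes are from RefSeq on GRCm38.p6, and 183 of 224 genes had a window. Named are the 8 brightest genes, the 3 on each side of the signal limit, all called genes, and genes listed by role. Genes outside these were named after their values were seen. The genes and lists were chosen with earlier results of these data known. Alternatives were the pseudocount, the filter, the normalization, the threshold, the array types apart, an intensity trend, any probe set of a gene, a replicate block, the methods' test without moderation, leaving out each mouse and, chosen after the data were seen, leaving out 5 mice with a high Gapdh ratio.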

Additional observations from a re-analysis of the deposited data

Results flagged for a closer look

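In 282 groups of 5 mice, over 47 named Zfp genes, 20 (7.09%) held 1 mouse set apart from the other 4 by a gap of more than 0.71 of the group's range, where chance gives about 1 in 20.

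Replicate 1 of the NOD mice of 2 weeks was apart for 5 genes. It was high for Zfp36 at 2556.6 (others 1728.6 to 1946), for Zfp141 at 240.6 (79.4 to 93.7) and for Zfp386 at 674.7 (240.8 to 348.1). It was low for Zfp217 at 781.6 (1055.9 to 1165.1) and for Zfp410 at 165.7 (265.8 to 306.3). In the same group, replicate 3 was low for Zfp326 at 66.7 (117.4 to 132.4) and replicate 4 was low for Zfp384 at 1813.5 (1983 to 2039.9).

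Among NOD mice of 4 weeks, replicate 3, whose arrays stood apart, was high for Zfp326 at 208.7 (85.6 to 96.9) and low for Zfp668 at 89.2 (231.1 to 283). Replicate 2 was high for Zfp51 at 180.6 (59.9 to 93), replicate 1 for Zfp148 at 673.4 (550.8 to 572.9) and replicate 5 for Zfp644 at 607.3 (367.6 to 431.2).

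Among C57 mice of 2 weeks, replicate 3 was high for Zfp51 at 148 (90.6 to 102.7) and for Zfp326 at 166 (108.3 to 124.7). Replicate 2 was high for Zfp521 at 140.8 (57.8 to 77.5) and for Zfp593 at 1300.3 (437.3 to 628.3), and replicate 5 for Zfp207 at 1295.1 (1063 to 1128.5). At 4 weeks, replicate 2 was high for Zfp994 at 564.7 (327 to 379.1). In NON, Zfp775 was high in replicate 2 of 2 weeks at 190.5 (25.7 to 65.6), and Zfp335 was low in replicate 4 of 4 weeks at 576.9 (998.4 to 1137.6).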

How the results depend on the processing

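On the brightest probe set, no named strain or age difference reversed its sign, while other probe sets of Zfp945 and Zfp36l2 ran the other way. Zfp386, Zfp746 and Zfp979 at both ages, and Zfp52, Zfp943, Zfp982 and Zfp994 at 2 weeks, were called at 0.05 in all 26 alternatives that kept the brightest probe set and this threshold. Zfp942 lost its call in 19 of 26, Zfp36l2 in 16 and Zfp944 in 10. Of 41 alternatives, Zfp668 lost its call in 30, Zfp367 in 23, Zfp36l1 over the 3 strains in 18 and Zfp101 in 10.

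At an adjusted p under 0.005, 3 Zfp genes differed between strains at 2 weeks and 2 at 4 weeks, and 0 changed with age over the strains, in NOD or in NON. With the array types fitted separately, 2 changed with age over the strains. Without the 5 mice of high Gapdh ratio, chosen after the data were seen, 4 differed at 4 weeks, 0 changed with age over the strains, 2 in NOD and 0 in NON. With 1 mouse left out, 8 to 11 differed at 2 weeks and 6 to 7 at 4 weeks, 2 to 5 changed with age over the strains, 0 to 1 in NOD, 0 to 4 in NON and 0 to 0 in C57, and 0 to 0 differed in their age change. In NON, leaving out replicate 5 of 2 weeks left 0 and replicate 5 of 4 weeks left 1.

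Same-numbered mice did not deviate together (75 pairs, correlation -0.149 to 0.187). With the replicate block, 7 genes differed at 2 weeks and 4 at 4 weeks. The calls of Zfp945 at 2 weeks (adjusted p = 0.055) and of Zfp775 (0.0615) and Zfp994 (0.0501) at 4 weeks were lost. The causes were not tested. Signals below 50 lie near background, so ratios against them are imprecise.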
